A study of Mus musculus with 4 samples.

Results

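The genes described here are 8 of the 32285 genes counted in lymph node T cells: the coreceptor genes Cd4, Cd8a and Cd8b1, the lineage-choice factors Zbtb7b and Runx3, the T-box factors Tbx21 and Eomes, and the helper factor Gata3. They were chosen by symbol, all 8 were detected, and each was followed through the 12 T cell types that the authors named, to see how pure each named type was. The lymph nodes drained tumors of wildtype mice and were taken on day 8 after tumor cells were injected. From day 3 the treated mice ate chow with RGX-104, a compound that activates LXR, the nuclear receptor for oxysterols, while control mice ate control chow. Node tissue was cut up and digested with collagenase and DNAse, sorted by flow cytometry for T cells and for antigen-presenting cells (APCs), and made into 10x 5' libraries of RNA and of T cell receptor (TCR) transcripts. Each chow had 1 RNA and 1 TCR library. The labels give no number of mice, strain or tumor line, so intervals below are 95% intervals for counting error and carry nothing of the spread between mice.

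CD4 and CD8 are the coreceptors by which T cells read peptides on MHC class II and class I, and a developing thymocyte keeps only 1 of them. Zbtb7b (ThPOK) holds cells in the CD4 lineage and Runx3 holds them in the CD8 lineage, where it silences Cd4. Among mature cells Tbx21 (T-bet) drives the Th1 program with its cytokine interferon gamma, Eomes marks effector and memory CD8 cells, and Gata3 drives Th2 cells and is also active in regulatory T cells.

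There were 8671 barcodes with 38480769 unique molecular identifiers (UMIs) in the RGX-104 library, against 7346 barcodes with 31530931 UMIs in the control library. The authors' names covered 1995 RGX-104 and 2099 control T cells, with medians of 5048 and 4944 UMIs per cell. All 11 T cell markers were detected in each of the 12 types in each library. Levels are given as CPM, a gene's UMIs scaled to the summed UMIs of the type, and a UMI is 1 RNA molecule read at its 5' end. The names are the authors' own and may rest on these same transcripts, so differences between types are a description. A small share of any cell's UMIs can be free RNA, so values were read beside 1340 RGX-104 and 1008 control B-lineage barcodes. These were unannotated, held UMIs of at least 3 of 6 B cell markers, and had no Cd3d, Cd3e or Cd3g UMI by choice. Their medians were 3082 and 3123 UMIs, below those of the T cells, so shares were also taken after thinning each cell to 2000 UMIs. The libraries shared 95 barcodes, of which 11 were T cells.

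Cd4, Cd8a and Cd8b1 lie on mouse chromosome 6 (GRCm38, the assembly behind mm10), Cd4 at 124864693-124888247, Cd8a at 71373427-71379171 and Cd8b1 at 71322788-71337492. Cd4 set the CD8-named types apart from the Th1-, Treg- and Tfh-named ones. In CD8_01 it had 3.31 CPM with RGX-104 and 2.22 CPM with control chow, in CD8_02 2.27 and 1.15 CPM, and in CD8_03 1.59 and 0 CPM. B-lineage barcodes held 6.12 CPM in the RGX-104 library and 6.43 CPM in the control library, so Cd4 in all 3 CD8-named types lay below the level of cells that should lack it, with intervals that overlap it except in control CD8_02 and control CD8_03. In Th1_01 Cd4 reached 218 and 219 CPM, in Th1_02 248 and 227 CPM, and in Th1_03 254 and 223 CPM. Treg held 166 CPM with RGX-104 and 197 CPM with control chow. Tfh, the follicular helper type, held 430 and 352 CPM and was the highest T cell type in both libraries. Per cell the detection was partial: 60.5% of RGX-104 and 58.4% of control Th1_01 cells had a Cd4 UMI, as did 79.8% and 67.5% of Tfh cells. A cell with no Cd4 UMI in these types is not shown to lack CD4.

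The CD8 chains showed the mirror image, and CD8_03 stood apart among the 3 CD8-named types. Cd8b1, the beta chain found on conventional CD8 T cells, had 915 CPM in RGX-104 and 1108 CPM in control CD8_01, 935 and 1081 CPM in CD8_02, and 596 and 568 CPM in CD8_03. Cd8a, the alpha chain, had 497 and 537 CPM in CD8_01, 474 and 514 CPM in CD8_02, and 295 and 305 CPM in CD8_03. CD8_03 was the lowest of the 3 for both chains in both libraries. Only 64.8% of RGX-104 and 53.4% of control CD8_03 cells had a Cd8b1 UMI, against 96.8% and 98.3% in CD8_01. In the 3 Th1-named types Cd8a stayed between 1.05 and 7.26 CPM, around the 5.13 and 4.29 CPM of B-lineage barcodes. Cd8b1 in those types ran between 14.6 and 35.5 CPM, above the 9.28 and 5.72 CPM of B-lineage barcodes.

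**Figure D1:**
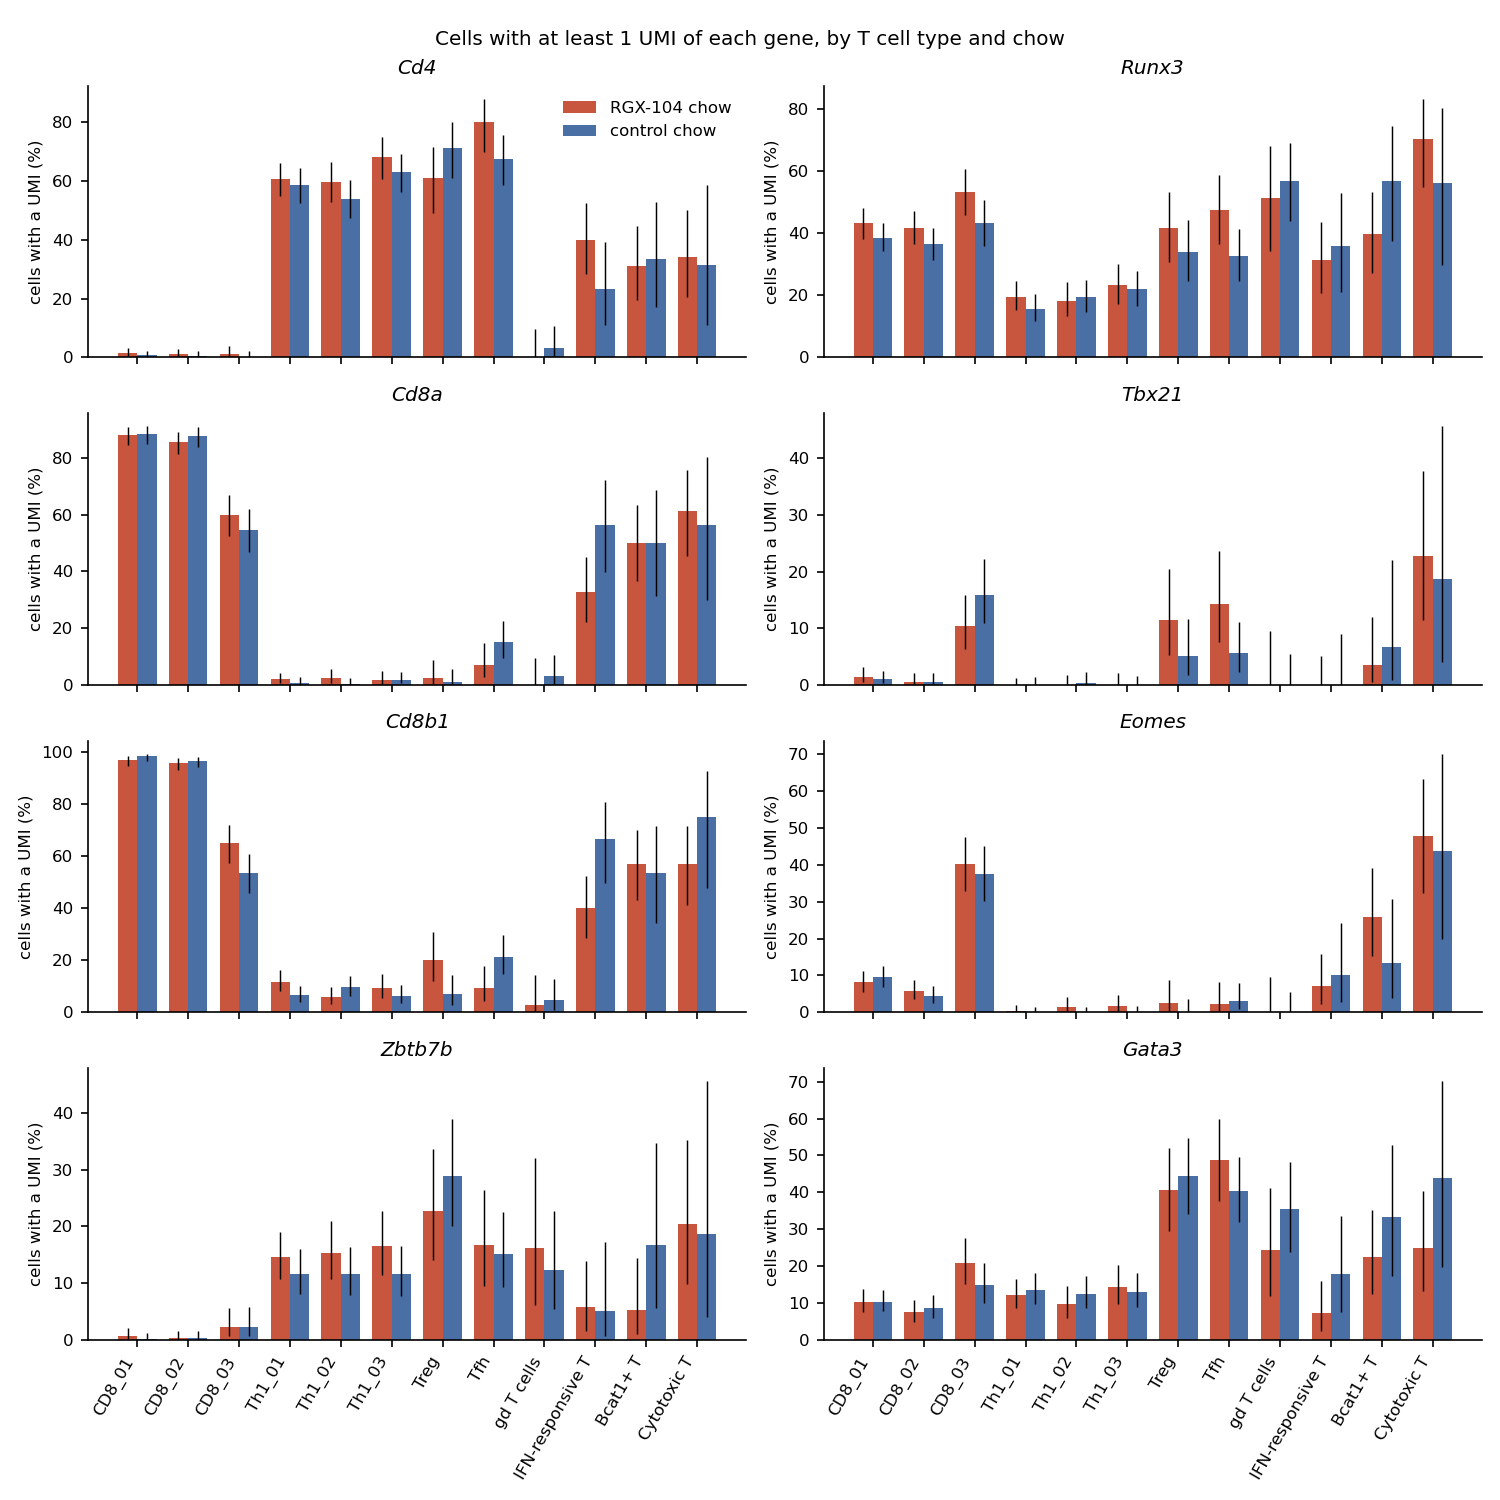
Percent of cells with at least 1 UMI of each of the 8 genes, in a panel per gene. Bars give the RGX-104 (red) and control (blue) library side by side in each of the 12 T cell types, and thin lines are 95% Clopper-Pearson intervals. In the CD8-named and Th1-named types Cd4 and the Cd8 chains are high in opposite types, Cd8b1 is in 64.8% and 53.4% of cells in CD8_03, and Tbx21 is at or near 0 in the 3 Th1-named types.

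Each cell was next classed by the coreceptor UMIs it held: Cd4 only, Cd8 (either chain) only, both or neither. The CD8-named types held almost no Cd4 by this measure. No cell with Cd4 alone was found among 938 RGX-104 and 988 control cells, which allows a share of up to 0.320% and 0.304%. These values limit cells with a Cd4 UMI, not CD4 cells, and the names may rest on these same transcripts. A CD4 cell whose Cd4 was missed would be classed as neither, a class that made up 7.14% and 7.19%. Any Cd4 UMI was seen in 12 RGX-104 cells, 1.28% (0.663 to 2.22), and in 6 control cells, 0.607% (0.223 to 1.32). In B-lineage barcodes the shares were 1.57% and 1.69%, so Cd4 in CD8-named cells was at or below background. Cells with Cd8 only made up 91.6% of RGX-104 and 92.2% of control cells. CD8_01 was 96.8% and 98.5% Cd8 only, and CD8_02 97.7% and 98.6%.

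CD8_03 was the exception. It held 56 of 182 RGX-104 cells (30.8%, 24.2 to 38) and 65 of 176 control cells (36.9%, 29.8 to 44.5) with neither coreceptor. These cells were split off after their values were seen, and they differed from the rest of the type in other genes. A UMI of the gamma delta T cell list (Trdc, Tcrg-C1, Tcrg-C2, Tcrg-C4, Trdv4, Sox13, Blk, Cd163l1) was present in 62.5% of RGX-104 and 58.5% of control cells with neither coreceptor, against 16.7% and 18.9% of those with Cd8. A UMI of the natural killer cell list (Ncr1, Klrb1c, Klra8, Klra4, Klre1) was present in 50% and 44.6%, against 15.9% and 18.0%. A TCR beta chain (TRB) was read in 33 of the 56 RGX-104 cells and 31 of the 65 control cells. Among those without TRB, Trdc, the delta constant gene, was detected in 78.3% and 67.6% of 23 and 34 cells, and among those with TRB in 9.09% and 12.9%. Nkg7, a cytotoxic granule gene, was at 1043 and 1160 CPM in the cells with neither coreceptor and at 1013 and 1118 CPM in those with Cd8, with intervals that overlap. The cells with neither were shallower, with medians of 5312 and 4525 UMIs against 7206 and 7407 UMIs, and the part of depth in the missing coreceptor was not tested.

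The types of the CD4 side could be tested less sharply, because Cd4 is missed so often. In Th1_01 to Th1_03, Treg and Tfh together, 56.8% of 848 RGX-104 cells and 55.2% of 961 control cells had Cd4 only, and 31.1% and 34.9% had neither. A UMI of either Cd8 chain was present in 12% of RGX-104 cells (9.91 to 14.4) and 9.99% of control cells (8.17 to 12.1). B-lineage barcodes gave 4.85% and 3.77%, so the Cd8 share in these types exceeded that background in each library. It did not exceed the 11.9% (10.5 to 13.5) and 10.7% (9.03 to 12.5) of B-lineage barcodes when those with Cd3 UMIs were let in. The types differed among themselves. Treg had a Cd8 UMI in 22.8% of RGX-104 cells (14.1 to 33.6) and 7.22% of control cells (2.95 to 14.3), and Tfh in 9.52% (4.20 to 17.9) and 22.2% (15.3 to 30.5). Without a match for depth, RGX-104 Treg and control Tfh thus lay above the wider B-lineage background as well. Th1_01 had one in 13.5% and 6.93%, Th1_02 in 8.17% and 9.96%, and Th1_03 in 10.5% and 8.07%. Most of the cells with Cd8 in the 5 types together held a single Cd8 molecule: with at least 2 UMIs required, the shares were 2.24% and 3.23%, with RGX-104 Treg at 3.80% (0.790 to 10.7) and control Tfh at 15.9% (9.97 to 23.4). Thinning to 2000 UMIs gave 6.02% and 6.12%, with RGX-104 Treg at 7.69% and control Tfh at 19.0%.

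**Figure D2:**
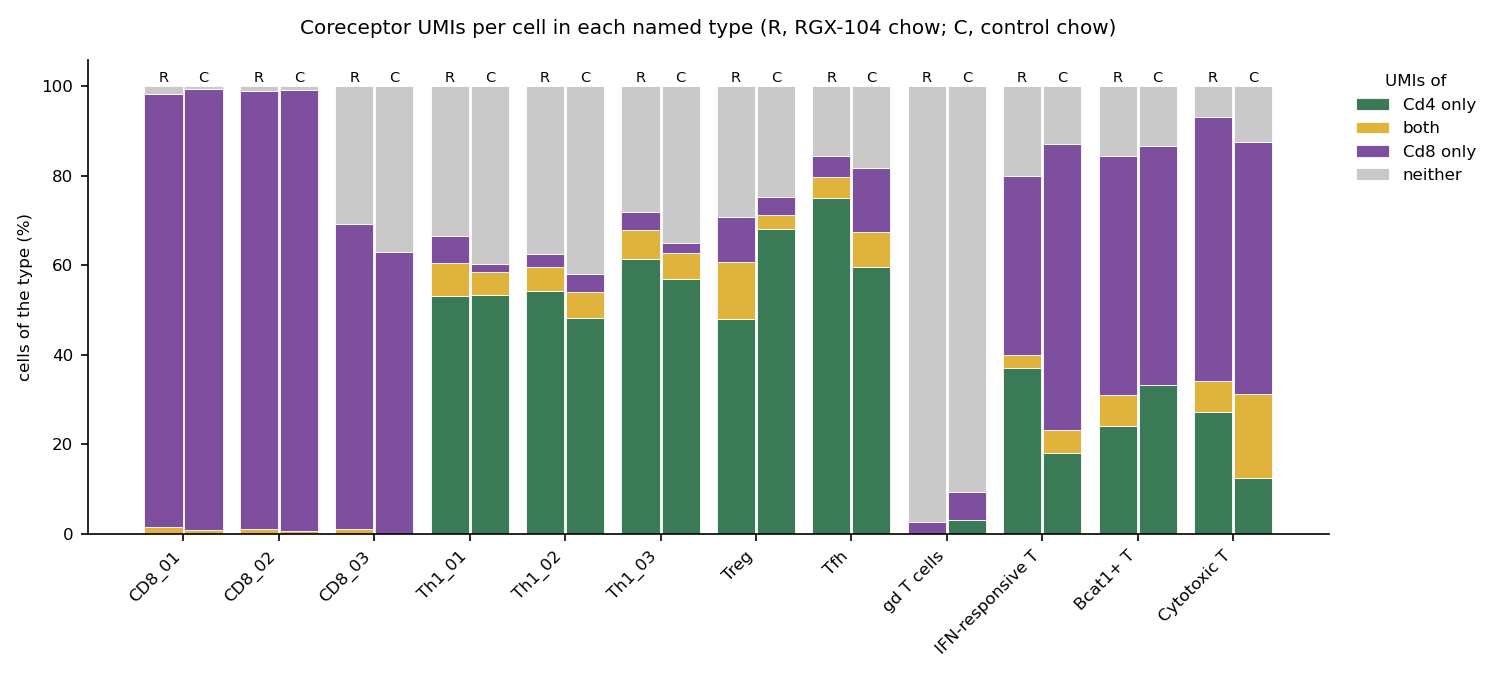
Percent of cells with Cd4 only, both coreceptors, Cd8 only or neither, as stacked bars for each T cell type, with the RGX-104 library (R) left of the control library (C) in each pair. CD8_01 and CD8_02 are nearly all Cd8 only, CD8_03 holds 30.8% and 36.9% with neither, and the IFN-responsive, Bcat1+ and Cytotoxic types are mixtures.

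The 2 Cd8 chains were unequal in the Th1-named cells. There Cd8b1 made up 78 of 94 Cd8 UMIs with RGX-104 (83.0%, 73.8 to 89.9) and 66 of 74 with control chow (89.2%, 79.8 to 95.2). Th1_02 with RGX-104, at 68.4% (43.4 to 87.4) of 19 UMIs, was the lowest of the 6 type and library pairs, and control Th1_03, at 80% (56.3 to 94.3) of 20 UMIs, followed. In the CD8-named types it made up 65.7% and 67.2%, and in B-lineage barcodes 64.4% (52.3 to 75.3) and 57.1% (41.0 to 72.3). The Th1-named cells taken as 1 group were thus above the CD8-named types in Cd8b1 share, with intervals that do not overlap in either library. Thinned to 2000 UMIs, a Cd8b1 UMI was found in 1.81% to 6.99% of cells of the Th1-named types, against 1.44% and 1.16% of B-lineage barcodes. In RGX-104 Treg Cd8b1 was also the more frequent chain, with 19 Cd8b1 and 2 Cd8a UMIs. Of the 9 Cd8a UMIs in control Treg, all came from 1 cell.

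The factors of the CD4 and CD8 lineages can be read in the same cells. The Th1-named cells with Cd8 only numbered 31 and 20, and their Zbtb7b level was 64.9 CPM (28.0 to 128) with RGX-104 and 42.3 CPM (11.5 to 108) with control chow. The Th1-named cells with Cd4 only had 41.1 and 29.5 CPM of Zbtb7b. In CD8-named cells with Cd8 only, Zbtb7b was at 0.801 and 0.575 CPM. Runx3 in the Th1-named cells with Cd8 only was at 24.3 and 21.2 CPM, against 119 and 96.8 CPM in CD8-named cells with Cd8 only. In both libraries the Th1-named cells with Cd8 only were far above the CD8-named cells in Zbtb7b and below them in Runx3, with intervals that do not overlap. The counts behind this are small, 8 and 4 Zbtb7b UMIs and 3 and 2 Runx3 UMIs. This split was also made after values were seen.

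**Figure D3:**
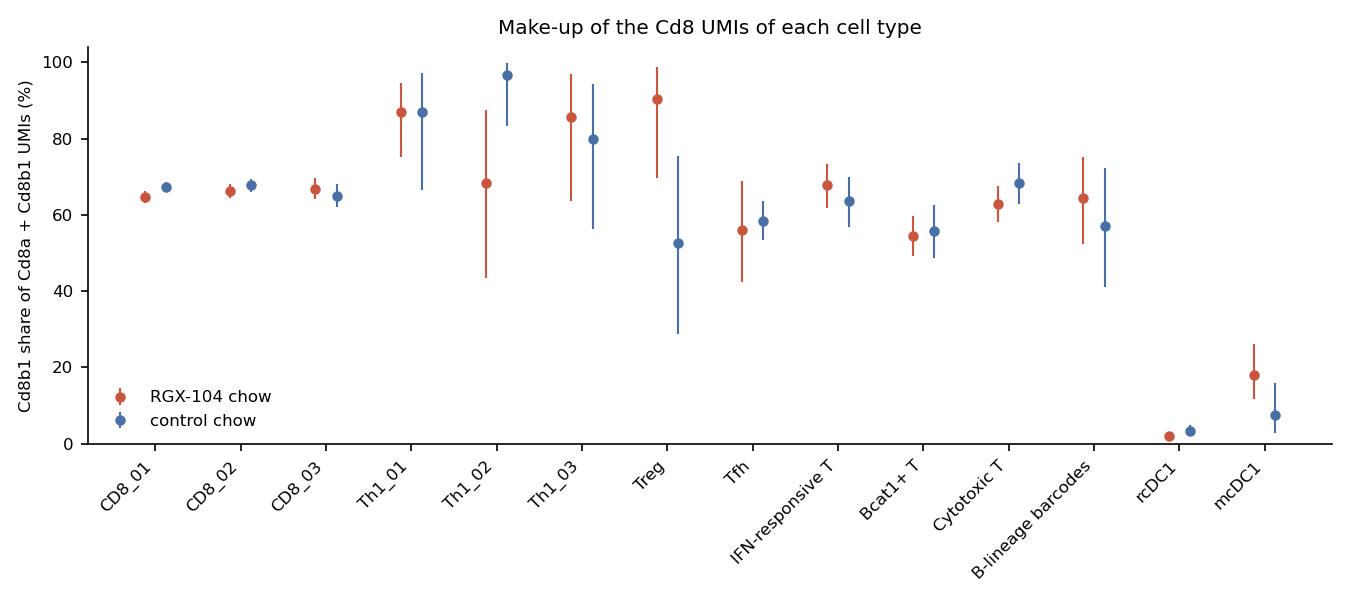
Cd8b1 as a percent of all Cd8 UMIs (Cd8a plus Cd8b1) by cell type, with B-lineage barcodes and 2 dendritic cell types at the right; points are the RGX-104 (red) and control (blue) library and lines are 95% Clopper-Pearson intervals. The CD8-named types lie near their joint 65.7% and 67.2%, the Th1-named types lie at 83.0% and 89.2% when summed, though singly the intervals of RGX-104 Th1_02 and Th1_03 and of control Th1_01 and Th1_03 overlap those of CD8-named types, and rcDC1 lies at 1.97% and 3.36%.

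Tfh held a group of cells with both Cd8 chains. Both Cd8 chains were detected in 6 of 84 RGX-104 Tfh cells (7.14%, 2.67 to 14.9) and in 18 of 126 control Tfh cells (14.3%, 8.69 to 21.6). They carried 57 of the 59 Cd8 UMIs of RGX-104 Tfh and 358 of the 371 of control Tfh, with up to 16 and 44 UMIs in 1 cell. Cd4 was detected in 2 and 1 of them, and a TRB chain in all 6 and all 18. Cd4 was at 346 CPM (198 to 563) in these RGX-104 cells and 34.6 CPM (11.2 to 80.8) in these control cells, against 438 CPM (382 to 499) and 430 CPM (379 to 487) in the other Tfh cells. By the level of Cd4 the control cells lay below the others, while the intervals of the RGX-104 cells, whose 16 Cd4 UMIs came from 2 cells, overlap. Nkg7 was at 671 CPM in these RGX-104 cells and 1274 CPM in these control cells, against 89.9 and 154 CPM in the other Tfh cells. Cxcr5, the follicle-homing receptor, was at 86.6 and 13.8 CPM, against 35.2 and 25.7 CPM in the others, and Bcl6, the follicular helper regulator, at 238 and 55.4 CPM, against 66.4 and 92.6 CPM. For Cxcr5 the intervals of both groups overlap in each library. Bcl6 was higher in these RGX-104 cells, where 11 UMIs came from 3 cells, and lower in the control ones, where the intervals overlap. The cells were singled out after their values were seen.

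The type named gd T cells lacked both coreceptors in 36 of 37 RGX-104 cells and 59 of 65 control cells. A TRB chain was read in 21 RGX-104 and 33 control cells of this type. It does not by itself show an alpha-beta receptor, and an alpha chain was read in only 10 and 16 cells. Of the cells with a TCR alpha chain (TRA), 6 of 10 with RGX-104 and 6 of 16 with control chow had TRAV11 joined to TRAJ18, the invariant chain of natural killer T cells; no other type held more than 1 such cell in a library. Zbtb16 (PLZF), the factor of innate-like T cells, was detected in 52.4% and 45.5% of the gd T cells with TRB and in 43.8% and 28.1% of those without, with intervals that overlap. The gamma delta list was detected in 95.2% and 84.8% of the cells with TRB and in 100% and 93.8% of those without. By their TRA chains, cells with an invariant alpha-beta receptor were among those named gd T cells. Among the 16 RGX-104 and 32 control cells without TRB, Trdc was detected in 43.8% and 78.1%, against 14.3% and 6.06% of those with TRB. The 12 invariant chains had 4 distinct CDR3 nucleotide sequences of 45 bases (TRAV11 and TRAJ18 lie on chromosome 14), which are shown because they identify these cells. They differed at base 12 from the 5' end alone, in capitals below, and the first of them was the most frequent.
Invariant TRA CDR3, 3 RGX-104 and 2 control cells: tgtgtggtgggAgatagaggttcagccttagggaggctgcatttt
Invariant TRA CDR3, A12G, 2 RGX-104 cells and 1 control cell: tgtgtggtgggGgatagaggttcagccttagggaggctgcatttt
Invariant TRA CDR3, A12C, 1 RGX-104 and 1 control cell: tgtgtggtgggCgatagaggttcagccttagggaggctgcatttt
Invariant TRA CDR3, A12T, 0 RGX-104 and 2 control cells: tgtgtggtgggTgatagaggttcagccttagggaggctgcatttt

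Of the named types, 3 mixed both lineages, and their names claim neither. IFN-responsive T cells were 37.1% Cd4 only and 40.0% Cd8 only with RGX-104, against 17.9% and 64.1% with control chow. Bcat1+ T cells were 24.1% Cd4 only and 53.4% Cd8 only with RGX-104, against 33.3% and 53.3%. Cytotoxic T cells were 27.3% Cd4 only and 59.1% Cd8 only with RGX-104, against 12.5% and 56.2% with control chow, where the type held only 16 cells. The 6 B cell markers summed to 56.8 CPM in RGX-104 and 321 CPM in control Cytotoxic T cells, and their part in the coreceptor classes was not tested. In these 3 types together Zbtb7b was at 26.8 CPM in RGX-104 and 30.4 CPM in control cells with Cd4 only, and at 3.71 and 4.03 CPM in cells with Cd8 only. The intervals of these classes overlap in the control library but not in the RGX-104 library.

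**Figure D4:**
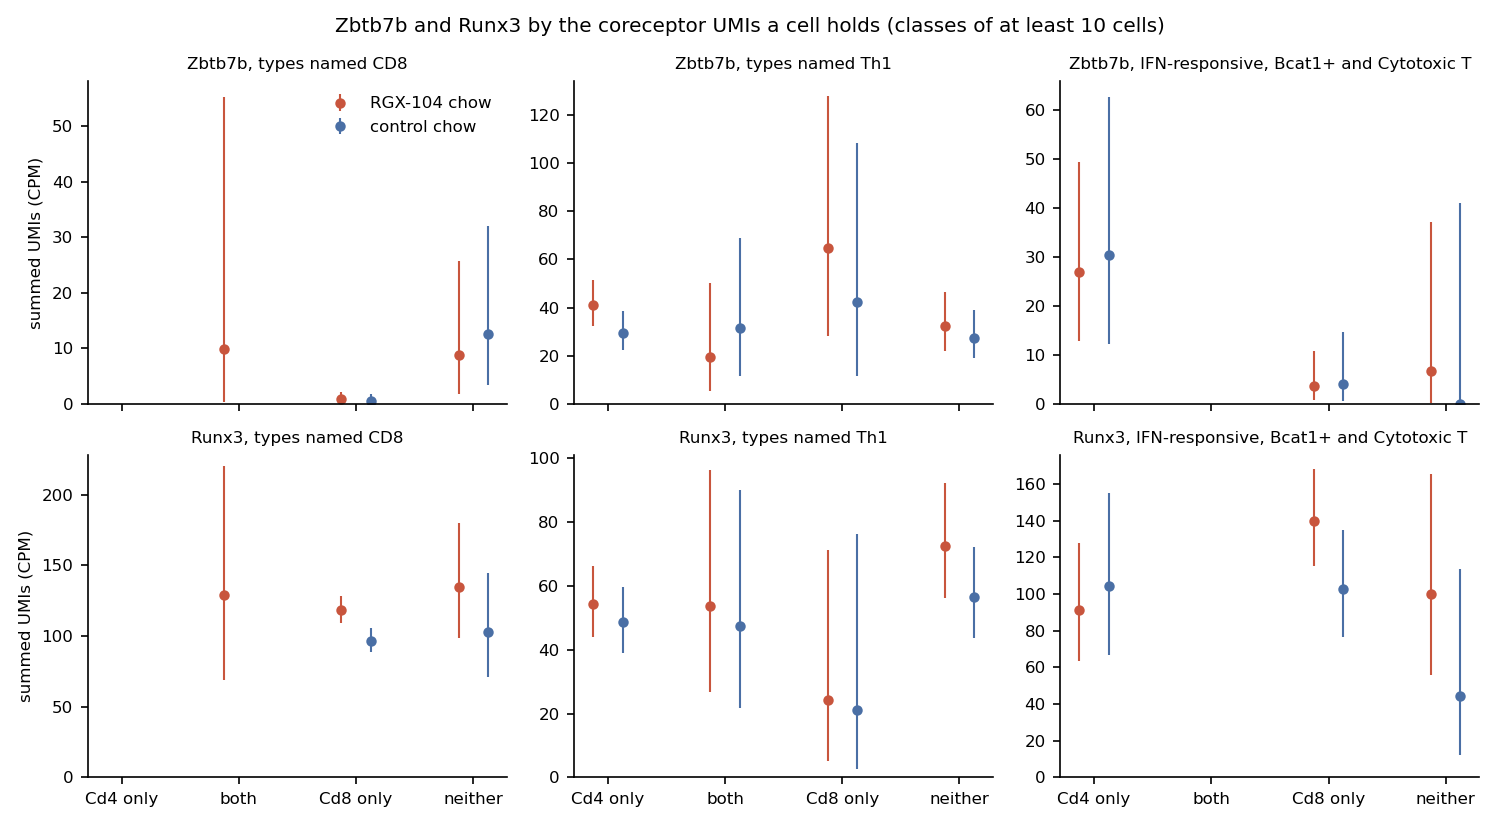
Level in CPM of Zbtb7b (top) and Runx3 (bottom) by the coreceptor UMIs a cell holds, in the CD8-named, Th1-named and 3 mixed types, for the RGX-104 (red) and control (blue) library with exact Poisson intervals; classes of fewer than 10 cells are not drawn, and each panel has its own axis. Zbtb7b is higher in cells with Cd4 only than in those with Cd8 only in the mixed types, with intervals that overlap in the control library, and is near 0 in CD8-named cells with Cd8 only, while in Th1-named cells the intervals of these classes overlap.

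TCR sequences gave a check of the coreceptor classes, and of the names, from other molecules. Cells with the same alpha and beta chains descend from 1 T cell and should share a coreceptor. Of the clonotypes with at least 2 cells of a coreceptor class, 10 in the RGX-104 library and 8 in the control library, none held both a Cd4 and a Cd8 cell, which allows up to 30% and 37.5% of such clonotypes. In the RGX-104 library 4 were Cd4 and 6 were Cd8, and in the control library 4 and 4. By name, 13 RGX-104 and 11 control clonotypes had at least 2 cells of CD8-, Th1-, Treg- or Tfh-named types. None of them joined a CD8-named cell to a Th1-, Treg- or Tfh-named one. In control Tfh, 8 cells belonged to clones, of which 2 held Cd8 and 5 held Cd4, and 2 had a sister cell with Cd8 only and 5 one with Cd4 only. Of the 3 such cells in RGX-104 Th1_01, 1 held Cd8 and 1 had a sister with Cd4 only. Of the 3 in RGX-104 Th1_02, none held Cd8, 1 had a sister with Cd8 only and 1 had a sister with Cd4 only. Of the 80 RGX-104 and 65 control T cells with both coreceptors, 5 and 5 had 2 TRB chains. These were 7.81% and 8.47% of the cells with both coreceptors in which TRB was read. The shares were 3.23% and 3.81% among T cells with Cd4 only, and 2.37% and 3.30% among those with Cd8 only. Of the cells with both coreceptors, 1 and 2 were among the 6% of barcodes with the highest doublet scores, as were 0.351% and 0.667% of all T cells.

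Zbtb7b lies on chromosome 3 at 89377644-89393673 and Runx3 on chromosome 4 at 135120645-135177990. Zbtb7b, like Cd4, was higher in the Th1-, Treg- and Tfh-named types than in the CD8-named ones. The 3 Th1-named types held 34.0 and 30.0, 44.7 and 32.6, and 37.6 and 25.6 CPM in the RGX-104 and control libraries. Treg, the lowest of these types in Cd4, held 42.8 and 54.7 CPM, and Tfh, the highest in Cd4, held 26.9 and 27.5 CPM. Within the CD4 side Zbtb7b thus did not follow the order of Cd4. The 938 RGX-104 CD8-named cells held 8 Zbtb7b UMIs in all, and the 988 control cells 7. B-lineage barcodes had 11.3 and 13.6 CPM, and gd T cells, with 0 and 2 Cd4 UMIs in all, had 29.7 and 21.5 CPM.

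Runx3 marked the CD8-named types less exclusively. It was at 113 and 92.7 CPM in CD8_01, 126 and 103 CPM in CD8_02, and 126 and 102 CPM in CD8_03. The Th1-named types held about 1 level, 55.9 and 47.0, 60.5 and 51.6, and 60.9 and 53.9 CPM, close to the 54.3 and 44.1 CPM of B-lineage barcodes. Treg and Tfh were not low: Treg held 110 and 75.0 CPM, and Tfh 143 and 79.7 CPM. Cytotoxic T, with 215 and 111 CPM, was the highest T cell type with RGX-104, and gd T cells, with 163 and 169 CPM, were the highest with control chow. Between the CD8-named types the intervals overlap, and those of Treg and Tfh overlap them in the RGX-104 library and in the control library.

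Promoter windows of 250 bases before the start site were taken from RefSeq (GRCm38.p6). They are shown for Runx3, whose CPM was higher with RGX-104 in each compared type, and for Zbtb7b, its opponent in the choice of lineage. The RUNX motif was searched as TGTGGT or TGCGGT, on both strands, and 18.6% of all 32851 promoter windows hold 1 of them. Capitals mark it: 2 minus-strand copies stand 134 and 126 bases before the Runx3 start, and 1 copy stands 89 bases before the Zbtb7b start. The other annotated start of each gene had none, and neither did the windows of Cd8a, Tbx21, Eomes and Gata3. The GATA factor motif, searched as AGATAA, is in 9.99% of all windows, and the T-box motif, searched as GGTGTGA, in 3.33%; neither was in a window of these 6 genes. A match says only that the letters are there.
Runx3, chr4:135120395-135120644, plus strand: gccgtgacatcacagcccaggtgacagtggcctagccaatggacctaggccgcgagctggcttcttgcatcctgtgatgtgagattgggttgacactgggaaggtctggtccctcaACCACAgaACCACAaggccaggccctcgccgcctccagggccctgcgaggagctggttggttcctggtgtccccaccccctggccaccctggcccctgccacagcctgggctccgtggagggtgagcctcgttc
Zbtb7b, chr3:89387672-89387921, minus strand: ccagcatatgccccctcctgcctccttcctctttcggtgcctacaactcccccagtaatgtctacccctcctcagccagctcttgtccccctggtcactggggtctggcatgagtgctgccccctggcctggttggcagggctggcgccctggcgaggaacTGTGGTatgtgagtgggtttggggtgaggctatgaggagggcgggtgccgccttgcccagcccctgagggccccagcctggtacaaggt

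Tbx21 lies on chromosome 11 at 97098007-97115331, and it was all but absent from the types named after Th1. In 685 RGX-104 cells of Th1_01 to Th1_03 there was no Tbx21 UMI, which allows up to 0.438% of cells with a UMI and 0.983 CPM. In 738 control cells there was 1 UMI in 1 cell (0.136%, 0.00343 to 0.753). These values limit cells with a UMI, not cells that express the gene. Interferon gamma (Ifng) had 2 UMIs in the RGX-104 cells and 1 in the control cells, the chemokine receptor gene Cxcr3 8 and 1, and the interleukin-12 receptor gene Il12rb2 6 and 2. Ccl5 was at 48.2 and 41.2 CPM, against 4184 and 4218 CPM in CD8_03. These cells held genes of resting T cells: Tcf7 at 572 and 614 CPM, Lef1 at 546 and 576 CPM and Ccr7 at 877 and 1181 CPM. They also held Cd40lg, the helper ligand, at 153 and 156 CPM. The data go against the name Th1, so these types are called Th1-named here.

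Tbx21 was found elsewhere. CD8_03 held 19.0 CPM with RGX-104 and 30.6 CPM with control chow (10.4% and 15.9% of cells). Treg held 29.8 and 9.37 CPM, Tfh 26.9 and 15.1 CPM, and Cytotoxic T 25.2 and 17.1 CPM. Bcat1+ T held 2.99 and 14.0 CPM. The intervals of CD8_03, Treg, Tfh and Cytotoxic T overlap within the RGX-104 library; with control chow, CD8_03 was highest and its interval lay above that of Treg. In RGX-104 CD8_01, 9 of the 14 Tbx21 UMIs were in 1 cell. gd T cells and IFN-responsive T cells had none.

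Eomes (chromosome 9, 118478186-118486132) was a gene of CD8_03 and Cytotoxic T. CD8_03 held 108 CPM with RGX-104 and 112 CPM with control chow, in 40.1% and 37.5% of cells. Cytotoxic T held 118 and 72.8 CPM, in 47.7% and 43.8% of cells, and Bcat1+ T 74.7 and 23.3 CPM. CD8_01 held 19.9 and 23.3 CPM and CD8_02 12.5 and 12.1 CPM. In the Th1-named types it was between 0 and 3.63 CPM, and gd T cells had none. Within CD8_03 Eomes was at 141 and 127 CPM in cells with neither coreceptor and at 97.6 and 107 CPM in cells with Cd8, with intervals that overlap.

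Gata3 (chromosome 2, 9857078-9887953) was highest in Tfh and Treg among the 8 types that had 50 or more cells in both libraries and were compared between chows. Tfh held 133 CPM in each library, in 48.8% of RGX-104 and 40.5% of control cells, and Treg held 112 and 123 CPM, with intervals that overlap those of Tfh. gd T cells followed with 69.3 and 110 CPM. All other types lay lower: the Th1-named ones between 25.4 and 38.9 CPM, CD8_03 at 34.1 and 28.9 CPM, and CD8_01 and CD8_02 between 17.0 and 21.1 CPM. B-lineage barcodes held 1.38 and 1.43 CPM.

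Coreceptor genes were also read in APCs, where Cd4 and Cd8a mark dendritic cell subsets. The type named rcDC1 held Cd8a at 485 CPM with RGX-104 and 367 CPM with control chow, with Cd8b1 at only 1.97% and 3.36% of their Cd8 UMIs. The type named rcDC2 held Cd4 at 126 and 127 CPM, in 49.1% and 43.7% of cells. It held Runx3 at 260 and 189 CPM, higher than in each of the 12 T cell types. Its Runx3 intervals overlap those of the highest T cell types, Cytotoxic T with RGX-104 and gd T cells with control chow. Control pDC held Cd4 at 261, Cd8a at 269 and Cd8b1 at 204 CPM; the RGX-104 library had only 9 pDC.

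The genes whose levels across types were most like each member were ranked over the 8 types, by the lower of the 2 libraries' Pearson r of log2(CPM + 10) among 9427 genes. These are descriptions over 8 points that share libraries. Cd8a and Cd8b1 were each other's nearest gene (0.979). Zbtb7b had Cd4 among its 3 nearest (0.934), with Rbms1 (0.949) and Card19 (0.929). Cd4 itself was nearest to Tesc (0.967), Trat1 (0.955) and Ckb (0.95). Runx3 was nearest to Slc25a4 (0.921) and to the cytotoxic genes Nkg7 (0.894) and Cst7 (0.882). Tbx21 was nearest to Il18r1 (0.953), Lilr4b (0.935) and Dus2 (0.919), Eomes to Ifitm10 (0.966), Reck (0.944) and Wdr95 (0.943), and Gata3 to Myl6 (0.990), Heg1 (0.985) and Ptms (0.976). Next to Cd8a, after Cd8b1, came Nedd4 (0.952) and Bend4 (0.940), and next to Cd8b1, after Cd8a, Plac8 (0.965) and Dnajc15 (0.95). With ranks in place of values, 7 of these 24 stayed among the first 10.

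Between the chows the members differed little over all T cells. None of the 8 was at least 1.5-fold higher or lower, beside 2.92% of 10214 measured genes that were higher and 1.66% that were lower. Runx3 had 1184 UMIs and 105 CPM with RGX-104, against 963 UMIs and 84 CPM with control chow, a ratio of 1.25 (1.14 to 1.36). Eomes had 340 UMIs and 30.1 CPM, against 257 UMIs and 22.4 CPM, a ratio of 1.34 (1.14 to 1.58). These were the 2 members with intervals above 1, as 10.1% of measured genes had. Intervals of 3 members lay below 1, as for 12.6% of genes. Cd8b1 had 476 CPM with RGX-104 and 548 CPM with control chow (0.869, 0.838 to 0.901), Cd8a 253 and 273 CPM (0.926, 0.880 to 0.975), and Gata3 36.7 and 43.1 CPM (0.851, 0.745 to 0.972). The intervals of Cd4 (1.06, 0.975 to 1.15), Zbtb7b (1.07, 0.868 to 1.32) and Tbx21 (1.23, 0.886 to 1.71) included 1. Thinned to 2000 UMIs per cell, the ratio of Tbx21 was 1.87. In sums over cells such as these, more cells of a type and more RNA per cell cannot be told apart.

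The Eomes ratio depended on which types were summed and how they were weighted. Cytotoxic T and Bcat1+ T made up 2.21% and 2.91% of RGX-104 T cells, against 0.762% and 1.43% of control T cells, and they held 16.5% and 14.7% of all Eomes UMIs with RGX-104, against 6.61% and 3.89%. Both types also held Eomes at a higher CPM with RGX-104, so leaving them out removes a difference of share and one of level together. With these types left out, the ratio was 1.08 (0.897 to 1.30), and with types given the same weight in both libraries it was 1.08. In CD8_03, which held the largest share of Eomes UMIs of the 12 types (40.0% and 49.8%), it was 0.964 (0.751 to 1.24).

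Runx3 was higher with RGX-104 in each of the 8 compared types, as were 4.43% of the 3046 genes measured in all of them, while 5.58% were lower in each. Its CPM was also higher with RGX-104 in the B-lineage barcodes, so the difference was not confined to T cells. What the T cell ratios share with that background was not tested. The ratio was 1.22 (1.02 to 1.45) in CD8_01, 1.22 (0.995 to 1.49) in CD8_02 and 1.23 (0.965 to 1.58) in CD8_03. In Th1_01 it was 1.19, in Th1_02 1.17 and in Th1_03 1.13, each with an interval that included 1. Treg gave 1.46 (0.983 to 2.19). Tfh, with 80 UMIs with RGX-104 and 58 with control chow, gave 1.80 (1.27 to 2.57), the 1 member at least 1.5-fold higher there, beside 4.30% of genes. Without the Tfh cells that hold both Cd8 chains, a choice made after seeing the data, it was 1.82 (1.24 to 2.71). Among APCs, Runx3 gave 1.33 (1.13 to 1.57) in rcDC1 and 1.37 (1.13 to 1.67) in rcDC2, but 0.899 in mcDC1 and 0.945 in mcDC2, with intervals that included 1. Cd8a in rcDC1 gave 1.32 (1.21 to 1.45).

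**Figure D5:**
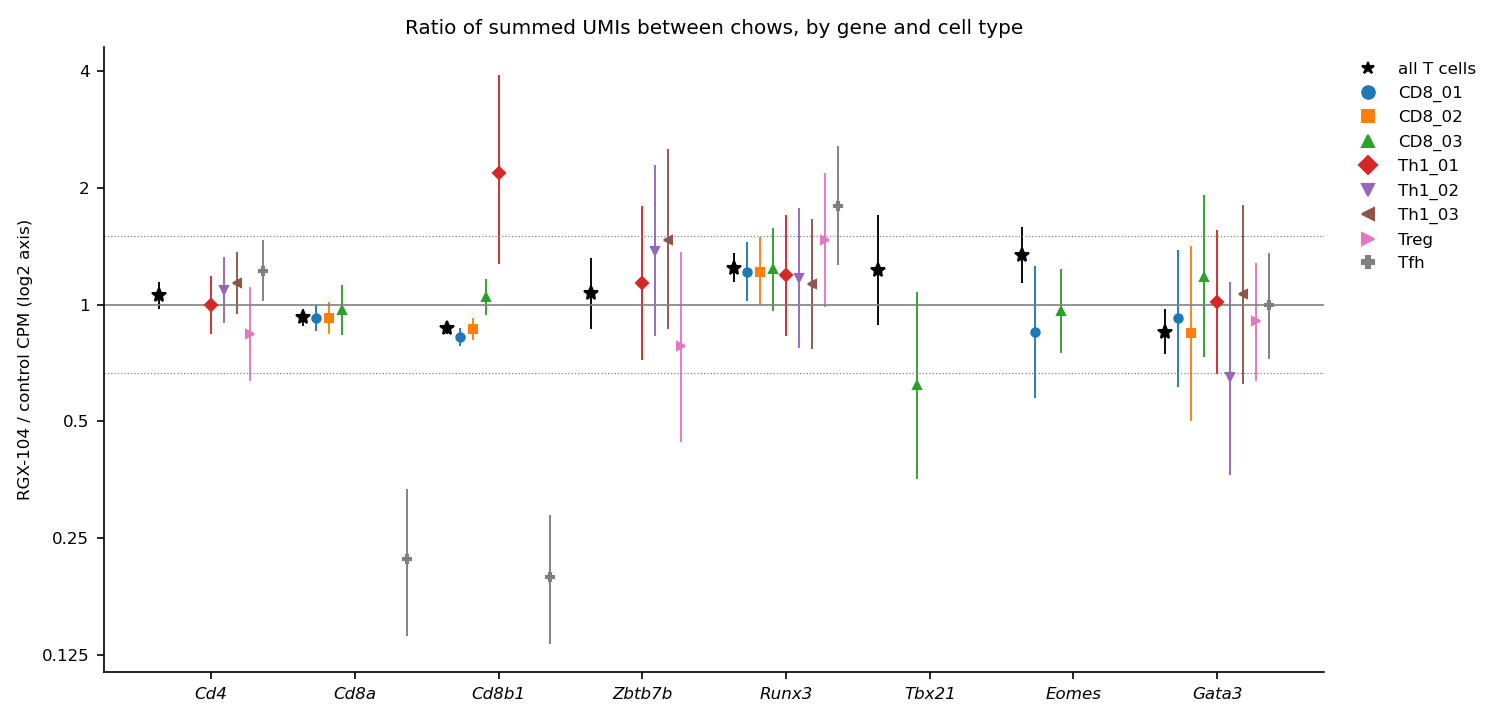
RGX-104 to control ratio of CPM (log axis) of each member in all T cells (star) and in the 8 compared types, with exact conditional 95% intervals for counting error and dotted lines at 1.5-fold either way; members with fewer than 50 UMIs over both libraries in a type are not drawn. Runx3 lies above 1 in each type, and Cd8a and Cd8b1 lie far below 1 in Tfh, at 0.220 and 0.198.

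The Cd8 chains differed most in Tfh. Cd8a had 26 UMIs with RGX-104 and 154 with control chow, a ratio of 0.220 (0.139 to 0.335), and Cd8b1 had 33 and 217, a ratio of 0.198 (0.133 to 0.287). These were the 2 members at least 1.5-fold lower in Tfh, beside 5.43% of genes. The 6 and 18 cells with both chains hold nearly all of these UMIs. Thinned to 2000 UMIs per cell the ratios were 0.386 and 0.313. Cd4 in Tfh had 430 CPM with RGX-104 and 352 CPM with control chow, a ratio of 1.22 (1.02 to 1.46). Without the cells that hold both Cd8 chains Cd4 was at 438 and 430 CPM, which gives 1.02 (0.845 to 1.22).

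In the CD8-named types Cd8b1 was lower with RGX-104 in CD8_01 (0.825, 0.781 to 0.872) and in CD8_02 (0.865, 0.809 to 0.925). In CD8_03 it was 1.05 (0.942 to 1.17). In Th1_01 it was higher, with 47 UMIs with RGX-104 and 20 with control chow and a ratio of 2.19 (1.27 to 3.90), the 1 member at least 1.5-fold higher there, beside 4.25% of genes. The other types of the CD4 side held fewer than 50 Cd8b1 UMIs, apart from Tfh, and did not share a direction. Th1_02 had 13 and 30 UMIs, a ratio of 0.498 (0.238 to 0.984), Th1_03 had 18 and 16, a ratio of 1.36 (0.656 to 2.86), and Treg had 19 and 10, a ratio of 2.26 (1.001 to 5.45). Tbx21 in CD8_03 had 24 and 35 UMIs, a ratio of 0.622 (0.354 to 1.08), at least 1.5-fold lower as for 3.56% of genes. Gata3 in Th1_02 had 21 and 37 UMIs, a ratio of 0.652 (0.363 to 1.14), beside 4.15% of genes. The last 2 intervals included 1. Elsewhere no measured member was 1.5-fold apart: 0 of 5 in CD8_01, beside 3.63% of genes higher and 2.94% lower, 0 of 4 in CD8_02 (3.20% and 3.44%), 0 of 4 in Th1_03 (4.76% and 4.28%) and 0 of 4 in Treg (4.59% and 7.51%). No member was higher in CD8_03, beside 4.59% of genes, or in Th1_02, beside 3.65%, and none was lower in Th1_01, beside 3.34%. In CD8_03 cells with a Cd8 UMI the Tbx21 ratio was 0.729 (0.342 to 1.53).

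The other genes of these lineages were followed in lists in all T cells, where the median log2 ratio of all measured genes was -0.01, and 2.92% of them were at least 1.5-fold higher and 1.66% lower. Of 17 partners in the choice of lineage (Runx1, Cbfb, Satb1, Tox, Myb and others), none was 1.5-fold apart, and their median was 0.04. Myb, a progenitor factor, had the largest ratio, 1.34 (1.21 to 1.49). Of 14 measured Th1 genes 4 were at least 1.5-fold higher and none lower, with a median of 0.41. Ifng had 24.3 CPM with RGX-104 and 5.06 CPM with control chow, a ratio of 4.81 (3.61 to 6.49), Il12rb2 gave 2.03 and Ccl5 1.86. Without Cytotoxic T, 44 of the RGX-104 and 16 of the control T cells, 3 were higher, with a median of 0.18: Ifng gave 3.32 and Il12rb2 1.66, while Ccl5, at 1.15 (1.11 to 1.20), was no longer 1.5-fold apart. By type, Ifng was at 35.6 and 0 CPM in CD8_01, 42.8 and 6.25 CPM in Treg and 60.9 and 33.0 CPM in Tfh. In CD8_03 it was at 8.72 and 13.1 CPM, and CD8_02 and the Th1-named types held at most 1.21 CPM. Of 11 cytotoxic genes 4 were higher, namely Gzma (5.13), Gzmk (3.26), Xcl1 (1.94) and Gzmb (1.57), and Klrg1 (0.649) was lower, with a median of -0.05. Without Cytotoxic T, Xcl1 (1.96) and Gzma (1.63) were higher, Gzmk (1.12, 0.742 to 1.71) and Gzmb (1.30, 1.09 to 1.56) were not, and Klrg1 gave 0.353. Of 10 Th17 genes 5 were at least 1.5-fold lower, with a median of -0.73, among them Il17a (0.537), Il17f (0.434), Il23r (0.471) and Ccr6 (0.539). Without gd T cells, 37 of the RGX-104 and 65 of the control T cells, 1 of 6 measured Th17 genes was lower and the median was -0.02, and Il17a had 0 and 6 UMIs left; the gamma delta list summed to 40.0 CPM in RGX-104 and 99.1 CPM in control T cells. Of the remaining lists, the Th2 list (6 measured) had none 1.5-fold apart and a median of 0.02, and the 3 helper genes had none and a median of -0.22. In the Treg list (8) Capg (0.628) and Nrp1 (0.653) were lower, with a median of -0.21, and in the Tfh list (8) Pdcd1 (0.639) was lower, with a median of -0.07. Without gd T cells these 3 genes were at 0.681 (0.619 to 0.749), 0.680 (0.530 to 0.868) and 0.706 (0.555 to 0.897). None was then 1.5-fold lower, but each interval stayed below 1. Without Cytotoxic T they were at 0.619, 0.687 and 0.524.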

How the data were processed

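The 2 RNA and 2 TCR libraries, 1 of each per chow, were used. The deposited matrices hold counts of UMIs per gene and barcode, and per the file headers Cell Ranger 5.0.0 wrote them. Seurat 5.0.3 and mm10 are named in the submitters' processing notes. The deposited TCR tables hold UMI counts per contig. The T cell and APC tables that the authors deposited give UMI and gene counts, the mitochondrial percent and a type name per cell, and carry no barcodes. Each of their 5825 cells was joined to the 1 barcode with the same counts (over genes in at least 3 barcodes) and percent.

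UMIs were summed per library and type. CPM carry exact Poisson intervals, shares Clopper-Pearson intervals and ratios exact conditional binomial 95% intervals; a limit for a count of 0 uses 3 counts. PCR copies are collapsed by UMI, yet intervals cover counting error only, and with 1 library per chow no p-value was computed. A gene counted as measured from 50 UMIs in the libraries summed, and types were compared with at least 50 cells in each. Named genes were all 8 members, the 3 most like each, and, per list, up to 3 with the largest ratio and 3 varying most between types; other genes (Nkg7, Bcl6, Zbtb16, Trdc, Ccr7, Il17a and Klrg1) were chosen after seeing the data. Some genes the rule names are not reported here. The members, the lists and the markers were chosen with earlier results of these data known. Clonotypes need the same V gene, J gene and CDR3 of TRA and TRB.

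Alternatives were TMM (edgeR 4.0.16, R 4.3.3) and median-of-ratios scaling, totals without receptor, immunoglobulin, mitochondrial and ribosomal genes, per-cell means, minimums of 10 and 200 UMIs, 2-fold, thinning to 2000 UMIs, equal type weights, at least 2 UMIs for a positive cell, Cd8b1 alone, removal of cells with 2 TRB chains, with B cell or myeloid markers or with high doublet scores, the TRB chain alone, Spearman ranks, a pseudocount of 1 CPM, and B-lineage barcodes with Cd3 allowed. Scrublet (scanpy 1.11.5) marked 0 barcodes by its automatic threshold, so the alternative left out the top 6% of scores. Leaving out Tfh cells with both Cd8 chains, CD8_03 cells without Cd8, or whole types was also chosen after seeing the data. The ratio code was tested on simulated data. Python 3.11.15, numpy 2.4.6, scipy 1.17.1 and pandas 2.3.3 were used.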

Additional observations from a re-analysis of the deposited data

Results flagged for a closer look

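Cd8b1 lay on opposite sides of 1 in different types, with intervals that excluded 1 on both sides. The RGX-104 to control ratio was 2.19 in Th1_01, above 1, and 0.825 in CD8_01, 0.865 in CD8_02 and 0.198 in Tfh, below 1. Among types with fewer than 50 Cd8b1 UMIs, it was 0.498 (0.238 to 0.984) in Th1_02, 1.36 in Th1_03 and 2.26 (1.001 to 5.45) in Treg, so the Th1-named types did not share a direction. The difference between types was not tested. In Th1_01 it rests on 47 UMIs with RGX-104 and 20 with control chow, and in Tfh on the 6 and 18 cells that hold both Cd8 chains.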

How the results depend on the processing

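No paired analysis was possible because each chow has 1 RNA library and the labels give no replicate numbers. Of the recomputed ratios of members, 219 moved by less than their error and 8 by more. A reversal was looked for only in ratios whose interval excluded 1, and none was found. Some settings changed the data little: high doublet scores took out 7 RGX-104 and 14 control T cells, and 2 TRB chains 46 and 59. The count of members at least 1.5-fold apart in all T cells became 1 after thinning to 2000 UMIs (Tbx21, 1.87) and was 0 under the 10 other settings. The share of CD8-named cells with Cd4 became 0.107% with RGX-104 and 0.202% with control chow at 2 or more UMIs, and 0.537% and 0 after thinning. The share of Th1-, Treg- and Tfh-named cells with Cd8 became 2.24% and 3.23%, and 6.02% and 6.12%, in the same settings. With the TRB chain alone, 1 of 29 RGX-104 and 2 of 17 control clonotypes held both classes. By name, 1 of 31 and 2 of 24 joined a CD8-named cell to a Th1-, Treg- or Tfh-named one. B-lineage barcodes with Cd3 UMIs allowed had Cd4 in 5.13% and 4.94% and Cd8 in 11.9% and 10.7%, near the share in Th1-, Treg- and Tfh-named cells. Thinning also moved Cd8a in CD8_01 to 0.847 and Runx3 in CD8_02 to 1.49. Depth limits the calls of absence: a cell without a Cd4 UMI is not shown to lack Cd4.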
